A study of Mus musculus with 12 samples.

Results

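The 26 genes described here encode the enzymes that build cholesterol from acetyl-CoA, the SREBP transcription factors and the proteins that hold or release them, and 1 sterol carrier. They were taken as a named list, matched by gene ID without its version to a symbol, and all 26 were found among the 47643 gene IDs of the series. Of these, 8 act in the mevalonate steps, 12 in the squalene and sterol steps, 5 in SREBP control, and Stard4 is a sterol transfer protein. They were followed in poly(A) RNA-seq of mouse skin in 12 libraries, 3 in each of 4 groups, namely whole skin of Adam17 conditional knockout (KO) mice, whole skin of wild type (WT) mice, epidermis of KO mice and epidermis of WT mice. All mice had a C57BL/6 background and were 10 weeks old, and the labels name no treatment. The KO mice carried Sox9-Cre together with floxed Adam17 alleles (Adam17 fl/fl). Sox9-Cre is active in the hair follicle lineage, so cells outside that lineage can keep Adam17, which encodes a membrane protease that sheds EGFR ligands and TNF. The labels describe the controls as wild type and do not mention a Cre or a floxed allele in them. Whether each of the 3 libraries in a group is its own mouse is not stated, so the p-values reflect the spread among these samples, part of which may be technical.

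Cholesterol synthesis starts with acetyl-CoA, passes through mevalonate and the isoprenoid diphosphates to squalene, and ends with the conversion of lanosterol to cholesterol. In skin, cholesterol is a main lipid of the cornified barrier, and sebaceous glands also make sterols and squalene-derived lipids. SREBP2 and SREBP1, the products of Srebf2 and Srebf1, are made as membrane proteins of the endoplasmic reticulum. When sterols are scarce Scap escorts them to the Golgi for cleavage, and the freed domain raises transcription of most genes of the pathway, whereas the Insig proteins retain Scap when sterols are plentiful.

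The promoters of 4 genes are shown, chosen as follows, and no expression result below rests on them. Hmgcs1 was the gene of the set with a match to the sterol response element letters, Idi1 had the largest knockout difference of the set in skin, Hsd17b7 had the largest in epidermis, and Srebf2 encodes the factor of the pathway. Each window runs 5′ to 3′ on the strand of the gene, from 250 bases before to 50 bases after the start site annotated by RefSeq on GRCm38.p6. They lie at chr13:119690101-119690400 on the plus strand (Hmgcs1), chr13:8885356-8885655 on the plus strand (Idi1), chr1:169969156-169969455 on the minus strand (Hsd17b7) and chr15:82147019-82147318 on the plus strand (Srebf2). Capitals mark the letters TCACNCCAC, a form of the sterol response element, and CCAAT, the box bound by NF-Y, on either strand (CCAAT on the other strand reads ATTGG).
Hmgcs1: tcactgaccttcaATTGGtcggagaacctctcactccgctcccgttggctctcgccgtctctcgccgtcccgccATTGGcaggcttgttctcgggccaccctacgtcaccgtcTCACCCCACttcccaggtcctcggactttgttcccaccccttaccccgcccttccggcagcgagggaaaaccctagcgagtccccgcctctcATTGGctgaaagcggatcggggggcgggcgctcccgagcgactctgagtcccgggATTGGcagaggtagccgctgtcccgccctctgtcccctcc
Idi1: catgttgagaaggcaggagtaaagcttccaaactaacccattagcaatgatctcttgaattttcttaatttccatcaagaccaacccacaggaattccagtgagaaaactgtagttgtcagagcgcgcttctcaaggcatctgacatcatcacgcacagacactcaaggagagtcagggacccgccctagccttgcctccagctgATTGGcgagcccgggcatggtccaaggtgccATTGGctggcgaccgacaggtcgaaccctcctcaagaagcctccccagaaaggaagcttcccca
Hsd17b7: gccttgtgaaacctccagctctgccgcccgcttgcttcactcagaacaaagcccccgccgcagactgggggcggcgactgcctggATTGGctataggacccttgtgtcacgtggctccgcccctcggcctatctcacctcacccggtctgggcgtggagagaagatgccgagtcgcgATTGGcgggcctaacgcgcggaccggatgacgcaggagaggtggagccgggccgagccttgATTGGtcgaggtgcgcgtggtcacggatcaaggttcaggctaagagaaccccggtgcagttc
Srebf2: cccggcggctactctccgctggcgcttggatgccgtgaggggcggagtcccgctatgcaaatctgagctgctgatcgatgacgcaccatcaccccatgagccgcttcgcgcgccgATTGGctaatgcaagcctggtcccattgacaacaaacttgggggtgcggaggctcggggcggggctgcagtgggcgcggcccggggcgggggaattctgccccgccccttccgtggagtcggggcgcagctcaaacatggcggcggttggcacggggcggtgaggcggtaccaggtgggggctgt
RefSeq windows were at hand for 22 of the 26 genes, in 30 windows, and Fdps, Fdft1, Sqle and Stard4 had none. The sterol response element letters stood in 1 of the 30 windows (3.33%), that of Hmgcs1, against 1.24% of all 32851 promoter windows of the same length. CCAAT stood in 21 of the 30 windows (70%), which belong to 20 of the 22 genes, against 37.4% of all windows. Acat2 and Scap were the genes without it. The GC box GGGCGG, also searched on both strands, stood in 24 windows (80%) of 20 genes, against 35.7% of all windows. The E box CACGTG stood in 6 windows (20%) of Dhcr7, Hsd17b7, Insig1, Sc5d and Scap, against 7.15% of all windows. No motif contains another, and a match describes letters in these windows and nothing more.

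**Figure D1:**
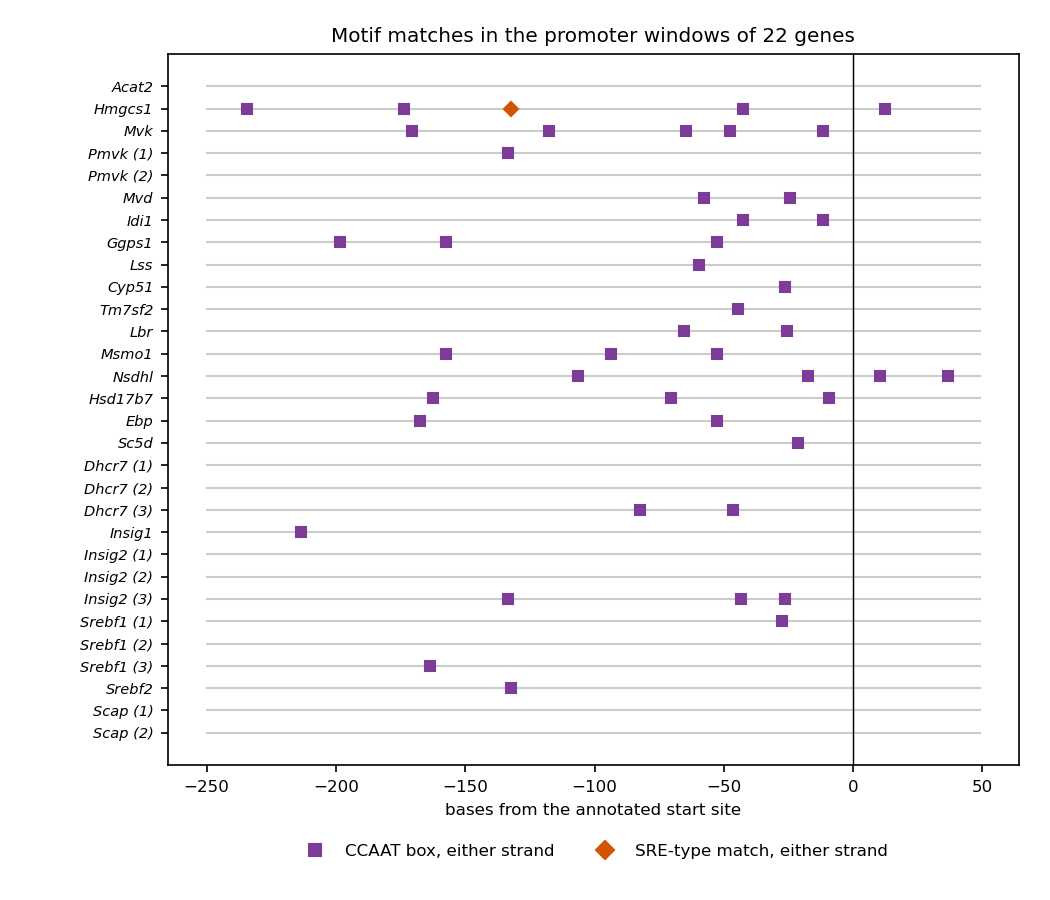
Positions of CCAAT boxes (squares) and of the sterol response element letters (diamond) in the RefSeq promoter windows of 22 genes, in bases from the annotated start site; each grey line is 1 window, and genes with several annotated starts have several lines, numbered by genome position. CCAAT matches lie in 21 of 30 windows, and Hmgcs1 alone holds a match to TCACNCCAC, a form of the sterol response element. Other forms of the element were not searched.

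Libraries held between 12208522 and 16743144 expected counts, and every gene of the set had reads in every library, from 109 to 10358. Levels given as CPM are counts scaled to library size with TMM factors, listed for libraries 1, 2 and 3 of a group in that order. Adam17 itself had 41.6, 52.1 and 52.5 CPM in KO skin, against 72.3, 96.3 and 94.1 CPM in WT skin, and 48.4, 58.1 and 47.3 CPM in KO epidermis, against 78.9, 86.4 and 79.5 CPM in WT epidermis. It was lower in both, with log2 fold changes of -0.75 (SE 0.16, edgeR adjusted p = 0.00797) in skin and -0.66 (SE 0.12, edgeR adjusted p = 0.00213) in epidermis. The labels do not give the sex of the mice. Reads of 4 Y-linked genes were at 0 in all 6 WT libraries and numbered 1728, 0 and 1034 in KO skin and 1781, 213 and 679 in KO epidermis, so Y-linked reads moved with genotype. Reads of Xist, the RNA that coats the silenced X in female cells, numbered 0, 430 and 319 in KO skin, against 660, 2193 and 1864 in WT skin, and 0, 2511 and 2050 in KO epidermis, against 1719, 3222 and 1939 in WT epidermis. Both kinds of read were present in libraries 2 and 3 of KO epidermis and library 3 of KO skin, and the labels do not say whether a library came from 1 mouse. Counts that take these reads into account follow. Basal keratinocyte markers (5 genes) summed to between 10960 and 15840 CPM in KO epidermis and between 22470 and 25700 CPM in WT epidermis, where 10 skeletal muscle markers stayed at or below 28.93 CPM and 10 adipocyte markers at or below 24.46 CPM.

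In whole skin, genes of cholesterol synthesis were higher in KO than in WT along nearly the whole route. Of the 26 genes, 19 were higher and 0 lower at an edgeR adjusted p under 0.05, where 22.2% of the 14906 genes tested were higher and 23.3% lower (45.5% in all). The rise spanned 6 of 8 mevalonate genes, 11 of 12 squalene and sterol genes and, in SREBP control, Srebf2 and Scap. Among the 19, log2 fold changes ran from 0.53 (Mvk) to 2.11 (Idi1, 4.3-fold). The median over the 26 genes was 0.87, beside -0.00137 over all genes tested. KO and WT libraries did not overlap for 21 of the 26 genes, against 58% of all genes. Fdps, Ggps1, Dhcr7, Insig1, Insig2, Srebf1 and Stard4 were the 7 genes not called; of these, Insig1 and Stard4 lay higher and Dhcr7 lower in all 3 KO libraries.

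In epidermis, 7 of 12 squalene and sterol genes and Srebf2 were among those higher in KO, and Fdps was lower. Of the 26 genes, 11 were higher and 1 lower, where 26.2% of the 13632 genes tested were higher and 25.3% lower (51.5% in all). The 11 were Acat2, Idi1, Sqle, Lss, Cyp51, Lbr, Msmo1, Nsdhl, Hsd17b7, Srebf2 and Scap, and all 11 were also higher in skin. Their log2 fold changes ran from 0.43 (Scap) to 1.71 (Hsd17b7, 3.27-fold). The median over the 26 genes was 0.22, beside 0.00309 over all genes tested, and KO and WT libraries did not overlap for 13 of the 26, against 62% of all genes. Taking both directions, the set thus had smaller shares of called and of non-overlapping genes than all genes had. Of 8 mevalonate genes, 2 were higher and 1 lower, and 2 of 5 SREBP control genes were higher. Fdft1, Tm7sf2, Ebp, Sc5d and Dhcr7 were the squalene and sterol genes not called. The other 8 genes called higher in skin (Hmgcs1, Mvk, Pmvk, Mvd, Fdft1, Tm7sf2, Ebp and Sc5d) were not called in epidermis, and the difference between tissues was tested on its own. Without Epidermis WT 1, 10 of the 26 genes were higher and 3 lower.

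**Figure D2:**
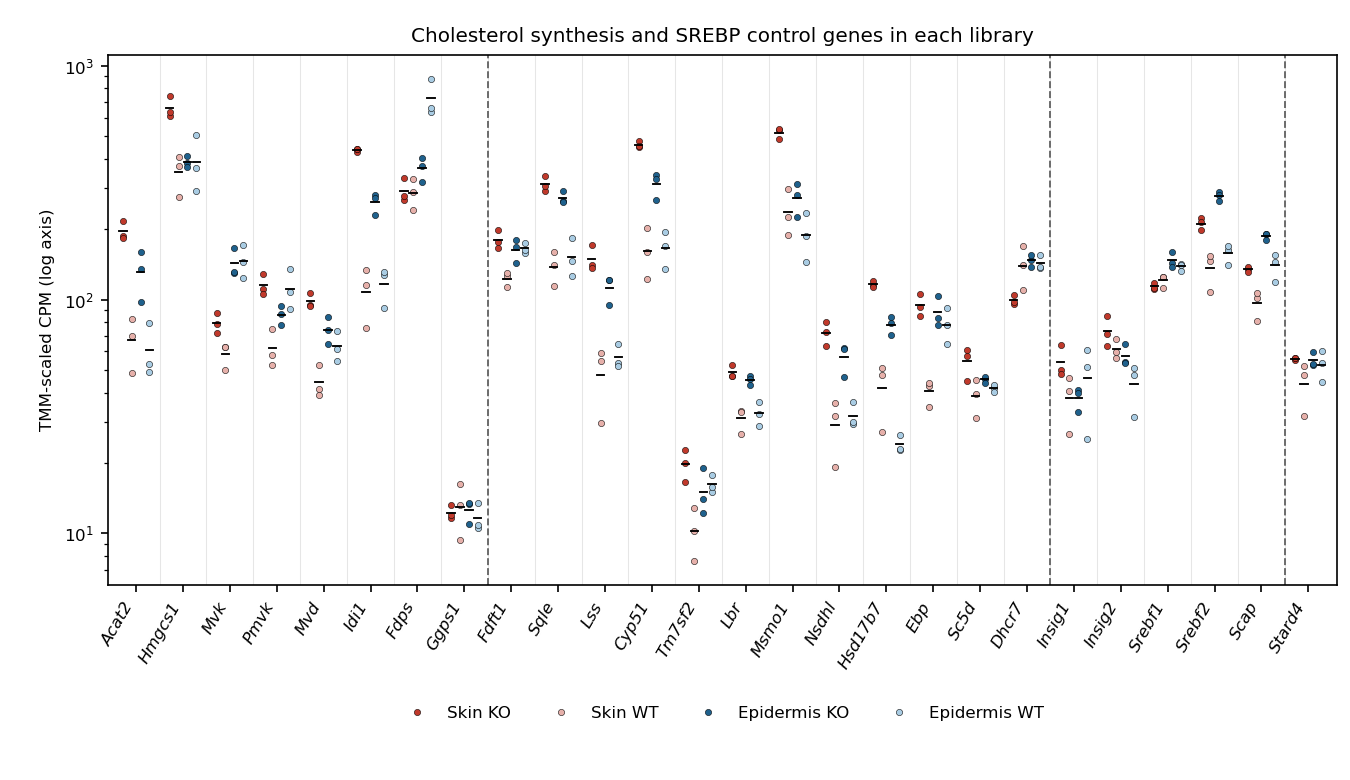
TMM-scaled CPM (log axis) of the 26 genes in each of the 12 libraries; each point is 1 library, the short line is the group mean, KO groups are dark and stand left of their WT groups, and dashed lines separate the mevalonate, sterol, SREBP control and sterol transfer genes. KO skin lies above WT skin for most genes, and Fdps in WT epidermis (636.5 to 879.7 CPM) lies above Fdps in the other 3 groups.

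Markers of other cell types and Y-linked reads also differed between KO and WT libraries, not all of them in both tissues. Markers of sebaceous gland (12 genes, of which Soat1 is also a cholesterol esterification enzyme) summed to between 5158 and 6645 CPM in KO skin and between 1676 and 5390 CPM in WT skin, and to between 1488 and 2509 CPM in KO epidermis and between 663.5 and 864 CPM in WT epidermis. Scd1 made up the largest part of each skin sum, with 3190, 4000 and 3463 CPM in KO skin, against 1022, 4607 and 3519 CPM in WT skin. In each tissue 7 of these 12 markers were higher and 1 lower, and none was at 0 in any group. The median log2 fold change of the 12 markers was 1.23 in skin and 1.18 in epidermis. KO and WT skin libraries did not overlap for 9 of the 12 markers, against 58% of all genes. In skin, 10 muscle markers summed to between 749.6 and 3628 CPM in KO and between 10440 and 77030 CPM in WT, and 10 adipocyte markers to between 254.7 and 566.5 CPM in KO and between 2685 and 3335 CPM in WT. Fibroblast markers (7 genes) summed to between 734.9 and 1682 CPM in KO skin and between 2075 and 2815 CPM in WT skin, with 4 of 7 lower, and to between 61.5 and 119 CPM in KO epidermis and between 5.96 and 10.6 CPM in WT epidermis, with all 6 tested higher. In skin 5 of 5 endothelial, 4 of 5 Schwann cell and 1 of 6 macrophage markers were lower, and 3 of 9 hair shaft and root sheath markers (median log2 fold change 3.59) and 4 of 6 T cell markers were higher, while of 4 neutrophil markers tested 3 were higher and 1 lower. Basal keratinocyte markers summed to between 16130 and 20930 CPM in KO skin and between 11650 and 12520 CPM in WT skin. Of the 5, 1 was higher and 1 lower. Suprabasal keratinocyte markers (5 genes) summed to between 30950 and 35740 CPM in KO skin and between 17580 and 23460 CPM in WT skin. Of these, 2 were higher and 2 lower. Their epidermal sums were 53310 to 78140 CPM in KO and 33540 to 41090 CPM in WT, with 2 higher and 1 lower. In epidermis 5 of 6 macrophage, 2 of 3 tested neutrophil and 3 of 6 T cell markers were higher, 4 of 5 basal keratinocyte markers were lower, and none of 7 tested hair markers was called. Some fibroblast, macrophage, neutrophil and T cell markers were near 0 in WT libraries. They passed the filter on low counts only through KO libraries, so their direction was largely set in advance. Examples in WT epidermis are Dpt (0.265, 0.0689 and 0.0864 CPM), Mrc1 (0, 0.0689 and 0 CPM) and Cxcr2 (0.0883, 0.0689 and 0 CPM). Skin WT 1 had the highest muscle sum and the lowest sebaceous sum, and it was the lowest WT skin library for 20 of the 26 genes. Without Skin WT 1, 18 of the 26 genes were higher in KO skin and 1 lower, with a median log2 fold change of 0.75. In bulk RNA, fewer cells of a type and less RNA per cell cannot be told apart, and the part of these markers in the pathway's differences was not tested. With the Y-linked share as a covariate, 15 of the 26 genes were higher in skin (without Mvk, Tm7sf2, Sc5d and Scap), and 8 were higher and 1 lower in epidermis (without Acat2, Msmo1 and Scap). Over all genes the calls numbered 4708 in skin, against 6780 without the covariate, and 4540 in epidermis, against 7014. In skin the log2 fold changes of the 4 lost calls were 0.62 for Mvk, 0.96 for Tm7sf2, 0.75 for Sc5d and 0.60 for Scap with the covariate, against 0.53, 1.04, 0.58 and 0.58 without it. In epidermis they were 0.74 for Acat2, 0.29 for Msmo1 and 0.40 for Scap, against 1.13, 0.54 and 0.43. Leaving out the KO skin libraries that hold Y-linked reads left 1 KO library, assumed to vary like the others, and 11 genes higher, namely Acat2, Pmvk, Mvd, Idi1, Sqle, Lss, Cyp51, Msmo1, Nsdhl, Hsd17b7 and Ebp. That fit called 2658 of all genes, and the median log2 fold change of the 26 genes was 0.95. The 8 lost calls had log2 fold changes from 0.64 (Scap) to 1.19 (Hmgcs1), each above its value with all libraries except Lbr, at 0.72 against 0.75. No such fit could be made in epidermis, where every KO library held Y-linked reads.

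The first mevalonate genes differed in both tissues or in skin. Acat2, the cytosolic thiolase that joins acetyl-CoA units, had 187, 217 and 184 CPM in KO skin, against 48.6, 82.95 and 69.9 CPM in WT skin. All KO skin libraries lay above the highest WT skin library, a log2 fold change of 1.64 (SE 0.20, 3.12-fold, edgeR adjusted p = 0.00113). In epidermis, Acat2 had 159, 97.9 and 135 CPM in KO libraries, against 49.1, 53.2 and 79.7 CPM in WT libraries. The groups did not overlap there either, with a log2 fold change of 1.13 (SE 0.22, 2.18-fold, edgeR adjusted p = 0.00323). With the Y-linked share as a covariate the epidermal value was 0.74 (edgeR adjusted p = 0.0685). Acat2 has a near copy, Acat3, and its reads were partly shared with other genes in all 12 libraries. Hmgcs1, which makes HMG-CoA in the cytosol, had 608, 739.6 and 635 CPM in KO skin, against 274, 406 and 373 CPM in WT skin. KO skin lay above WT skin without overlap, with a log2 fold change of 1.01 (SE 0.18, 2.01-fold, edgeR adjusted p = 0.00473). In epidermis, Hmgcs1 had 385, 368 and 409.8 CPM in KO libraries, against 292, 364 and 508 CPM in WT libraries. The WT epidermis libraries spanned all 3 KO values, and the log2 fold change was 0.01 (95% interval -0.52 to 0.54, edgeR adjusted p = 0.955).

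The 3 steps from mevalonate to isopentenyl diphosphate rose in skin and were not called in epidermis. Mvk, mevalonate kinase, had a log2 fold change of 0.53 (SE 0.15, 1.45-fold, edgeR adjusted p = 0.0224) in skin, a call lost without Skin WT 3, Skin KO 1 or Skin KO 2 (edgeR adjusted p = 0.0604, 0.0517 and 0.0928). In epidermis Mvk gave -0.02 (95% interval -0.44 to 0.41, edgeR adjusted p = 0.929). Pmvk, phosphomevalonate kinase, had 111, 129 and 106 CPM in KO skin, against 58.2, 75.1 and 52.5 CPM in WT skin. All 3 KO skin values exceeded the highest WT value, a log2 fold change of 0.99 (SE 0.17, 1.98-fold, edgeR adjusted p = 0.00369). In epidermis, Pmvk had 94.1, 77.9 and 86.6 CPM in KO libraries, against 90.95, 108 and 135 CPM in WT libraries. Epidermis KO 1 lay within the WT range, the other KO libraries lay below it, and the log2 fold change was -0.35 (95% interval -0.78 to 0.08, edgeR adjusted p = 0.0844). Without Epidermis WT 1 it was -0.49 (edgeR adjusted p = 0.0371). Mvd, the decarboxylase that yields isopentenyl diphosphate, had 95.2, 107 and 93.9 CPM in KO skin, against 38.98, 52.3 and 41.3 CPM in WT skin. KO skin was above WT skin without overlap, with a log2 fold change of 1.25 (SE 0.15, 2.38-fold, edgeR adjusted p = 0.000906). In epidermis, Mvd had 84.2, 64.9 and 74.02 CPM in KO libraries, against 61.3, 54.5 and 73.5 CPM in WT libraries. The groups overlapped, since Epidermis WT 3 lay above Epidermis KO 2, and the log2 fold change was 0.25 (95% interval -0.15 to 0.65, edgeR adjusted p = 0.168).

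Among the mevalonate genes, Idi1 had the largest positive log2 fold change in each tissue and Fdps the most negative one in epidermis. Idi1, the isomerase that makes the allylic partner for chain growth, lies at chr13:8885501-8892451 on the plus strand of GRCm38 and had 428, 439 and 439 CPM in KO skin, against 75.5, 134 and 115 CPM in WT skin. Even the lowest KO skin library exceeded the highest WT library by more than 3-fold, and the log2 fold change was 2.11 (SE 0.21, 4.3-fold, edgeR adjusted p = 0.000555). In epidermis, Idi1 had 280.2, 230 and 271 CPM in KO libraries, against 91.8, 128 and 132 CPM in WT libraries. All 3 KO libraries were again above all WT libraries, with a log2 fold change of 1.17 (SE 0.16, 2.25-fold, edgeR adjusted p = 0.000525). Fdps, farnesyl diphosphate synthase, lies at chr3:89093588-89101959 on the minus strand and had 266, 332 and 278 CPM in KO skin, against 287, 327 and 241 CPM in WT skin. The skin groups overlapped, with a log2 fold change of 0.12 (95% interval -0.34 to 0.59, edgeR adjusted p = 0.572). In epidermis, Fdps had 402, 319.5 and 371 CPM in KO libraries, against 637, 662 and 879.7 CPM in WT libraries. Every KO epidermis library was below every WT epidermis library, and the log2 fold change was -0.98 (SE 0.16, 1.97-fold lower, edgeR adjusted p = 0.00133). Fdps reads were partly shared with other genes in all 12 libraries, as were those of Idi1 in 11. Ggps1, which makes the geranylgeranyl donor for protein prenylation, had log2 fold changes of 0.01 (95% interval -0.56 to 0.59, edgeR adjusted p = 0.959) in skin and 0.13 (95% interval -0.34 to 0.60, edgeR adjusted p = 0.55) in epidermis.

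**Figure D3:**
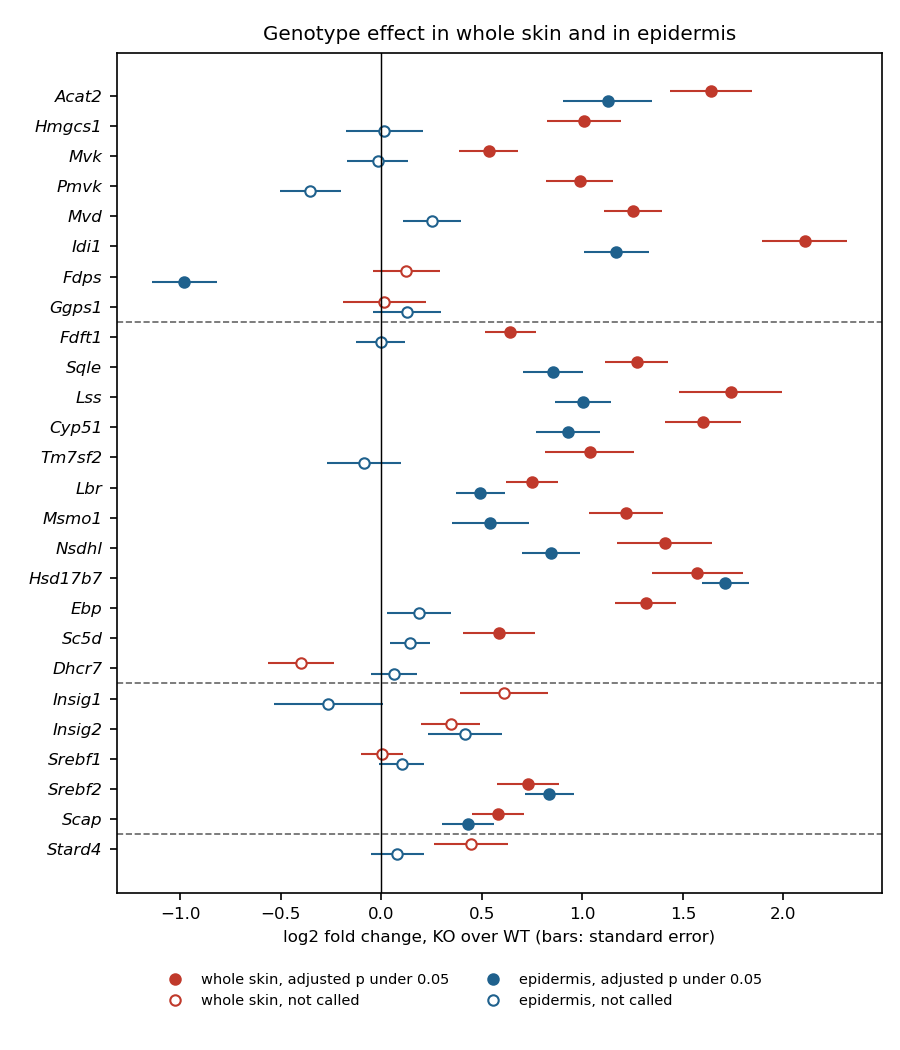
Log2 fold change of KO over WT for each of the 26 genes in whole skin (red, upper marker) and in epidermis (blue, lower marker); bars are standard errors, filled markers have an edgeR adjusted p under 0.05, and dashed lines separate the gene roles. Skin values lie right of epidermis values for 20 of the 26 genes, and Fdps in epidermis (-0.98) is the filled marker left of 0.

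At the entry into the sterol branch, Fdft1 rose in skin, and Sqle and Lss rose in both tissues. Fdft1, squalene synthase, had 166, 197 and 176 CPM in KO skin, against 127, 129.5 and 113 CPM in WT skin. KO skin lay above WT skin without overlap, with a log2 fold change of 0.64 (SE 0.13, 1.56-fold, edgeR adjusted p = 0.00669). In epidermis, Fdft1 had 179.7, 143 and 167 CPM in KO libraries, against 159, 163 and 174 CPM in WT libraries. The WT values lay within the range of the KO values, with a log2 fold change of 0.00 (95% interval -0.34 to 0.33, edgeR adjusted p = 0.982). Fdft1 shared reads with other genes in all 12 libraries and overlaps Ctsb on the opposite strand, and the strand setting of the counting is not given in the sources used here. Sqle, squalene epoxidase and a rate-limiting enzyme of the sterol branch, had 291, 338 and 305 CPM in KO skin, against 114, 159.6 and 139.9 CPM in WT skin. The KO skin values were all above the WT values, a log2 fold change of 1.27 (SE 0.16, 2.41-fold, edgeR adjusted p = 0.00108). In epidermis, Sqle had 290.2, 263 and 261 CPM in KO libraries, against 126, 146 and 183 CPM in WT libraries. No overlap was seen there either, with a log2 fold change of 0.85 (SE 0.15, 1.8-fold, edgeR adjusted p = 0.00176). Lss, which closes the sterol rings to lanosterol, had 140.2, 170.3 and 136 CPM in KO skin, against 29.7, 54.7 and 58.9 CPM in WT skin. Skin WT 1 was the lowest library and all KO libraries were above all WT libraries, with a log2 fold change of 1.74 (SE 0.26, 3.33-fold, edgeR adjusted p = 0.00216). In epidermis, Lss had 121, 94.98 and 122 CPM in KO libraries, against 53.4, 64.5 and 51.99 CPM in WT libraries. KO was higher without overlap, a log2 fold change of 1.00 (SE 0.14, 2-fold, edgeR adjusted p = 0.000586).

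Cyp51 and the sterol reductases followed. Cyp51, the lanosterol demethylase, had 449, 476 and 452 CPM in KO skin, against 123, 202 and 159.6 CPM in WT skin. The lowest KO skin library was above the highest WT skin library, and the log2 fold change was 1.60 (SE 0.19, 3.03-fold, edgeR adjusted p = 0.000991). In epidermis, Cyp51 had 342, 267 and 328 CPM in KO libraries, against 135, 169 and 194 CPM in WT libraries. The separation held there, with a log2 fold change of 0.93 (SE 0.16, 1.9-fold, edgeR adjusted p = 0.00167). Cyp51 overlaps Akap9 on the opposite strand, as Mvd does Gm20388, Ggps1 does Arid4b and Srebf1 does Rai1. Tm7sf2 and Lbr both encode reductases of the same sterol double bond, Lbr also being a lamin receptor of the nuclear envelope. Tm7sf2 had 22.7, 20.1 and 16.6 CPM in KO skin, against 7.63, 12.9 and 10.3 CPM in WT skin. KO skin lay above WT skin, with a log2 fold change of 1.04 (SE 0.22, 2.05-fold, edgeR adjusted p = 0.00871). In epidermis, Tm7sf2 had 13.99, 12.2 and 19 CPM in KO libraries, against 15.1, 15.7 and 17.8 CPM in WT libraries. Those groups overlapped, with a log2 fold change of -0.09 (95% interval -0.60 to 0.42, edgeR adjusted p = 0.709). Tm7sf2 overlaps Vps51 on the same strand, so reads of the pair could be split between them. Lbr had log2 fold changes of 0.75 (SE 0.13, 1.68-fold, edgeR adjusted p = 0.00388) in skin and 0.49 (SE 0.12, 1.41-fold, edgeR adjusted p = 0.00987) in epidermis, with no overlap of the groups in either tissue.

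The enzymes that strip the methyl groups from the sterol ring were among those higher in both tissues. Msmo1, the methyl oxidase, had 529, 539 and 484 CPM in KO skin, against 189.7, 297 and 226 CPM in WT skin. KO skin lay above WT skin without overlap, with a log2 fold change of 1.22 (SE 0.18, 2.32-fold, edgeR adjusted p = 0.00235). In epidermis, Msmo1 had 313, 225 and 281 CPM in KO libraries, against 145, 188 and 235 CPM in WT libraries. Epidermis WT 3 lay above Epidermis KO 2, and the log2 fold change was 0.54 (SE 0.19, 1.46-fold, edgeR adjusted p = 0.0399). That call was lost without Epidermis WT 1, Epidermis WT 2, Epidermis KO 1 or Epidermis KO 3, with edgeR adjusted p between 0.091 and 0.148, and the value was 0.29 with the Y-linked share as a covariate (edgeR adjusted p = 0.407). Nsdhl, an X-linked sterol dehydrogenase, had 63.5, 80.3 and 72.8 CPM in KO skin, against 19.2, 36.1 and 31.8 CPM in WT skin. All KO skin libraries exceeded all WT skin libraries, with a log2 fold change of 1.41 (SE 0.24, 2.66-fold, edgeR adjusted p = 0.00345). In epidermis, Nsdhl had 62.1, 46.9 and 61.2 CPM in KO libraries, against 36.5, 29.4 and 29.9 CPM in WT libraries. KO was again higher without overlap, a log2 fold change of 0.84 (SE 0.15, 1.79-fold, edgeR adjusted p = 0.0017). Hsd17b7, the keto reductase of the same complex, lies at chr1:169949535-169969241 on the minus strand and had 115, 120 and 114 CPM in KO skin, against 27.01, 47.4 and 50.7 CPM in WT skin. The 3 KO skin libraries lay close together and above every WT library, with a log2 fold change of 1.57 (SE 0.23, 2.97-fold, edgeR adjusted p = 0.00199). In epidermis, Hsd17b7 had 79.1, 70.8 and 84.1 CPM in KO libraries, against 22.8, 26.3 and 22.97 CPM in WT libraries. The groups were far apart, with a log2 fold change of 1.71 (SE 0.12, 3.27-fold, edgeR adjusted p = 1.89e-05).

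The last steps differed less evenly. Ebp, the X-linked isomerase that moves the ring double bond, had 85.1, 106 and 92.7 CPM in KO skin, against 42.8, 43.98 and 34.6 CPM in WT skin. KO skin was above WT skin without overlap, a log2 fold change of 1.31 (SE 0.15, 2.49-fold, edgeR adjusted p = 0.000861). In epidermis, Ebp had 103, 77.5 and 83.7 CPM in KO libraries, against 78.2, 64.5 and 91.97 CPM in WT libraries. The groups overlapped, with a log2 fold change of 0.19 (95% interval -0.25 to 0.63, edgeR adjusted p = 0.345). Sc5d, the sterol desaturase, had a log2 fold change of 0.58 (SE 0.18, 1.5-fold, edgeR adjusted p = 0.0333) in skin, where the groups overlapped. The call was lost without Skin WT 1, Skin WT 3, Skin KO 2 or Skin KO 3, with edgeR adjusted p between 0.0572 and 0.114. In epidermis Sc5d gave 0.14 (95% interval -0.13 to 0.42, edgeR adjusted p = 0.254). Dhcr7 encodes the reductase that makes cholesterol from its dehydro precursor, which in skin is also the precursor of vitamin D. It was the one sterol enzyme with a negative value in skin, where it had 95.4, 105 and 97.7 CPM in KO skin, against 110.2, 169 and 140.1 CPM in WT skin. The 3 KO values lay below the 3 WT values, and the log2 fold change was -0.40 (95% interval -0.86 to 0.06, edgeR adjusted p = 0.0864). Without Skin WT 1 it was -0.56 (edgeR adjusted p = 0.00936), and in 1 fit of all 12 libraries -0.49 (edgeR adjusted p = 0.0125). In epidermis Dhcr7 gave 0.06 (95% interval -0.25 to 0.38, edgeR adjusted p = 0.67).

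Of the SREBP control genes, Srebf2 rose in both tissues and Srebf1 did not pass the test in either. Srebf2, whose product mainly drives cholesterol genes, lies at chr15:82147181-82205379 on the plus strand and had 197, 222 and 214 CPM in KO skin, against 108, 147 and 154 CPM in WT skin. All KO skin libraries were above all WT skin libraries, with a log2 fold change of 0.73 (SE 0.16, 1.66-fold, edgeR adjusted p = 0.00857). In epidermis, Srebf2 had 264, 289.7 and 281 CPM in KO libraries, against 164, 169 and 140.3 CPM in WT libraries. All KO libraries exceeded all WT libraries there too, with a log2 fold change of 0.84 (SE 0.12, 1.78-fold, edgeR adjusted p = 0.000735). Srebf1, whose product mainly drives fatty acid genes, had 118, 111 and 112 CPM in KO skin, against 112, 125 and 125 CPM in WT skin. The skin groups overlapped, and the log2 fold change was 0.00 (95% interval -0.28 to 0.29, edgeR adjusted p = 0.977). In epidermis, Srebf1 had 144, 138 and 160.2 CPM in KO libraries, against 142, 141 and 133 CPM in WT libraries. These groups overlapped as well, with a log2 fold change of 0.10 (95% interval -0.21 to 0.41, edgeR adjusted p = 0.472). Scap, the escort of both factors, had log2 fold changes of 0.58 (SE 0.13, 1.5-fold, edgeR adjusted p = 0.00979) in skin and 0.43 (SE 0.13, 1.35-fold, edgeR adjusted p = 0.0218) in epidermis, with no overlap in either. The epidermal call was lost without Epidermis KO 1 or Epidermis KO 3 (edgeR adjusted p = 0.0533 and 0.0648). With library totals in place of TMM scaling Scap gave edgeR adjusted p = 0.0585 in skin and 0.0576 in epidermis.

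Neither Insig gene passed the edgeR test in either tissue. Insig1, a retention protein whose gene is itself an SREBP target, had 64.1, 50.2 and 48.1 CPM in KO skin, against 26.7, 46.1 and 40.8 CPM in WT skin. Each KO skin value exceeded each WT value, though by less than 3 CPM at the nearest pair, with a log2 fold change of 0.61 (95% interval 0.00 to 1.21, edgeR adjusted p = 0.0565). Without Skin WT 2 it was 0.78 (edgeR adjusted p = 0.0394), and DESeq2 called it higher at 0.61 (DESeq2 adjusted p = 0.0302), so the call depends on the tool. In epidermis, Insig1 had 32.9, 41.04 and 39.7 CPM in KO libraries, against 25.4, 51.7 and 60.8 CPM in WT libraries. The WT epidermis libraries spanned all KO values, with a log2 fold change of -0.26 (95% interval -1.02 to 0.49, edgeR adjusted p = 0.442), and without Epidermis WT 1 it was -0.57 (edgeR adjusted p = 0.0207). Insig2, the second retention protein, had 85.4, 63.3 and 70.9 CPM in KO skin, against 59.9, 56.3 and 68.03 CPM in WT skin. Skin KO 2 lay within the WT range, and the log2 fold change was 0.34 (95% interval -0.06 to 0.75, edgeR adjusted p = 0.0912). In epidermis, Insig2 had 54.1, 53.3 and 64.5 CPM in KO libraries, against 50.8, 47.7 and 31.5 CPM in WT libraries. All KO values were above the WT values, and the log2 fold change was 0.42 (95% interval -0.09 to 0.92, edgeR adjusted p = 0.0838). The deposited effective length of Insig2 averaged 1438 bases in KO epidermis and 2021 bases in WT epidermis, and with effective lengths as offsets its log2 fold change was 0.92 (edgeR adjusted p = 0.00438). Stard4, which carries sterols between membranes, had log2 fold changes of 0.45 (95% interval -0.07 to 0.96, edgeR adjusted p = 0.087) in skin and 0.08 (95% interval -0.29 to 0.45, edgeR adjusted p = 0.637) in epidermis.

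The knockout difference itself was set between tissues in 1 fit of all 12 libraries, as the epidermal log2 fold change minus that of skin. It was negative for 20 of the 26 genes and positive for 6, with a median of -0.48 beside 0.08 over the 15394 genes tested. It passed an edgeR adjusted p of 0.05 for 7 genes, all of them lower, where 6.36% of all genes were lower and 10.1% higher (16.5% in all). Pmvk had the widest gap at -1.26 (SE 0.24, edgeR adjusted p = 0.00642), followed by Ebp at -1.05 (SE 0.23, edgeR adjusted p = 0.0118) and Tm7sf2 at -1.05 (SE 0.31, edgeR adjusted p = 0.0393). Fdps stood at -1.03 (SE 0.24, edgeR adjusted p = 0.0152), Mvd at -0.92 (SE 0.21, edgeR adjusted p = 0.0155), Hmgcs1 at -0.91 (SE 0.28, edgeR adjusted p = 0.0472) and Fdft1 at -0.57 (SE 0.16, edgeR adjusted p = 0.0361). For Fdps the gap joins a skin value near 0 to a fall in epidermis, and for the other 6 it joins a rise in skin to an epidermal value that was not called. Pmvk, Mvd, Fdps and Ebp stayed past the threshold in all 19 alternative fits run. None of these fits held the Y-linked share as a covariate, so its part in the tissue difference was not tested. The other 3 calls were lost in 13 of the 19 for Hmgcs1, 10 for Fdft1 and 9 for Tm7sf2. With single libraries left out, edgeR adjusted p reached 0.113 for Hmgcs1 and 0.0973 for Fdft1 without Skin KO 2, and 0.0972 for Tm7sf2 without Epidermis KO 2. The number of genes called lower was 4 without Skin WT 3, Skin KO 2, Epidermis WT 2, Epidermis WT 3 or Epidermis KO 2. With the replicate number as a block within tissue Fdft1 gave edgeR adjusted p = 0.062, and with no filter on low counts 0.0607. Hmgcs1 gave 0.0548 with limma-voom, and edgeR adjusted p = 0.0638 with library totals and 0.0562 with effective length offsets. Tm7sf2 gave edgeR adjusted p = 0.0728 with library totals. Idi1, at -0.86 (SE 0.28, edgeR adjusted p = 0.0556), was not called but passed without Skin WT 1, Skin WT 2 or Epidermis WT 1 (edgeR adjusted p = 0.0446, 0.0284 and 0.04), with RLE scaling (0.045), with no filter on low counts (0.0432) and with DESeq2 (DESeq2 adjusted p = 0.013). None of the 5 SREBP control genes was called, with differences from -0.79 (Insig1) to 0.19 (Srebf2). In the single-library-out fits, Hsd17b7 (0.46) and Dhcr7 (0.69) were called higher without Skin WT 1, and Insig1 (-1.09) lower without Epidermis WT 1.

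The tissue preparations were also compared within each genotype, in libraries shared with the knockout comparisons above. In WT mice, 7 of the 26 genes were higher in epidermis than in whole skin and 1 was lower, where 17.6% of the 14596 genes tested were higher and 25.3% lower (42.9% in all). Epidermis and skin libraries did not overlap for 11 of the 26 genes, against 56.5% of all genes. The 7 were Fdps (1.33), Mvk (1.30), Ebp (0.93), Pmvk (0.82), Tm7sf2 (0.64), Scap (0.52) and Fdft1 (0.40), given as log2 fold changes of epidermis over skin, with edgeR adjusted p between 0.00117 and 0.0435. Hsd17b7 was lower at -0.82 (SE 0.23, edgeR adjusted p = 0.0222), a call lost without any 1 of Skin WT 2, Skin WT 3 and the 3 WT epidermis libraries. In KO mice, 5 genes were higher in epidermis and 10 lower, where 14.1% of the 14117 genes tested were higher and 15.9% lower (29.9% in all). The libraries did not overlap for 17 of the 26, against 47.9% of all genes. Mvk (0.84), Dhcr7 (0.57), Scap (0.46), Srebf2 (0.39) and Srebf1 (0.37) were the 5 higher. Msmo1 (-0.93), Hmgcs1 (-0.77) and Idi1 (-0.75) had the largest of the 10 negative values, and Acat2, Hsd17b7, Cyp51, Insig1, Pmvk, Mvd and Lss lay between -0.59 and -0.41, the 15 with edgeR adjusted p up to 0.0499. These directions depend on the scaling: with library totals alone the median of all genes was -0.30 in WT and -0.28 in KO mice, and the counts were 3 higher and 2 lower in WT and 1 higher and 17 lower in KO. Leaving out 1 library also moved the counts. In WT, 3 genes were higher without Skin WT 3 and 4 without Epidermis WT 1. In KO, 5 genes were lower without Skin KO 2, Epidermis KO 2 or Epidermis KO 3, and 6 were lower and 3 higher without Skin KO 3. Over the 4 groups, mean CPM was highest in KO skin for 19 of the 26 genes and lowest in WT skin for 18.

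Levels per length, taken from the deposited TPM, place Fdps and Msmo1 at the top of the set. Fdps averaged 326.9 ± 47.2 TPM in KO epidermis and 640.5 ± 63.3 TPM in WT epidermis, and 368 ± 40.3 TPM in KO skin and 374 ± 78.4 TPM in WT skin (SD, n = 3 each). It had the highest mean of the 26 genes in every group but KO skin, where Msmo1 averaged 436.5 ± 19.2 TPM, against 217 ± 73.4 TPM in WT skin. Of the summed TPM of the 26 genes, Fdps made up 13.2% in KO skin and 22.6% in WT skin, and 19.3% in KO epidermis and 38% in WT epidermis, with no overlap between KO and WT libraries in either tissue. Hmgcs1 averaged 289.6 ± 27.2 TPM in KO skin and 164 ± 53.5 TPM in WT skin. Ggps1 had the lowest mean in all 4 groups, at 7.53 ± 0.50 TPM in KO skin, 8.51 ± 3.41 TPM in WT skin, 5.62 ± 1.46 TPM in KO epidermis and 5.05 ± 1.14 TPM in WT epidermis. The summed TPM of the 26 genes was 2661, 2939 and 2753 in KO skin, against 1189, 2062 and 1801 in WT skin. It was 1503, 1597 and 1989 in KO epidermis, against 1526, 1751 and 1777 in WT epidermis. The sums were apart in skin and overlapped in epidermis.

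**Figure D4:**
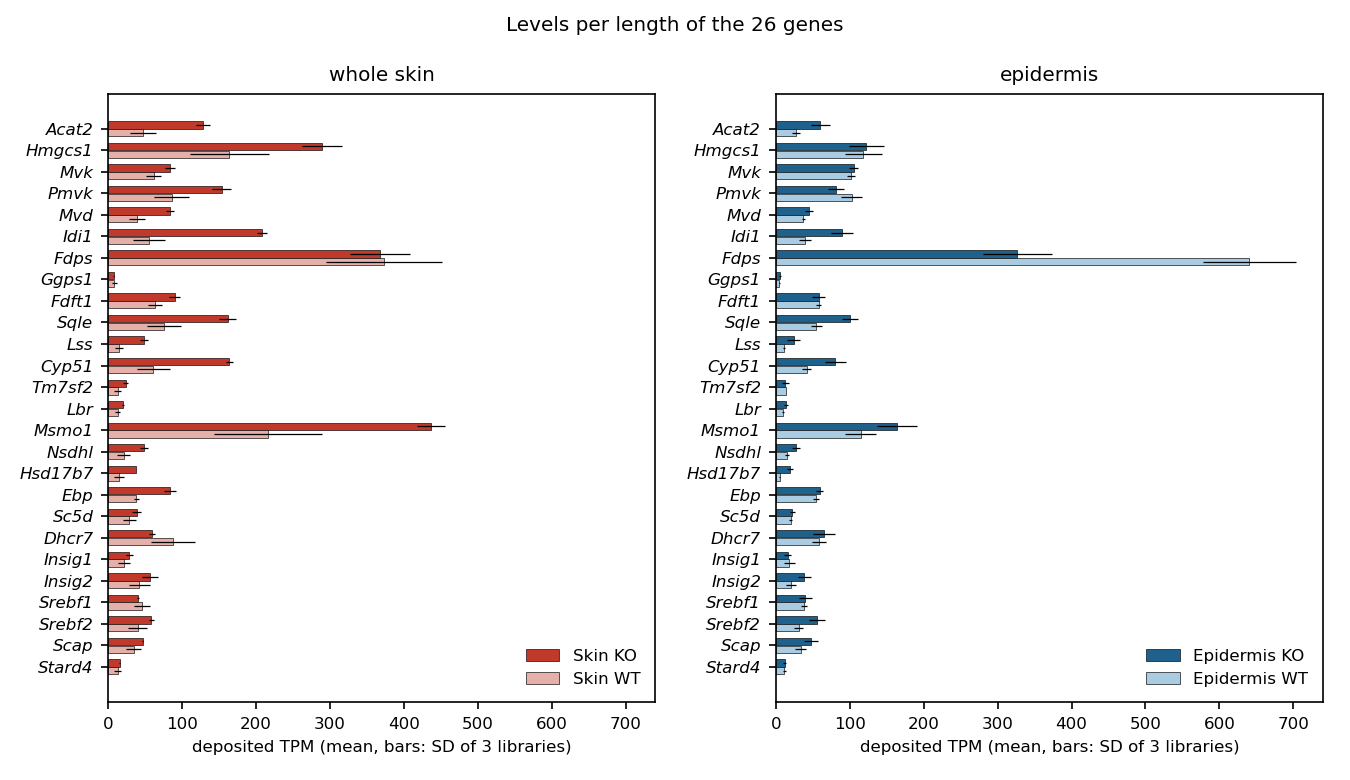
Deposited TPM of the 26 genes, as group means with SD bars over 3 libraries, in whole skin (left) and epidermis (right), with the KO bar drawn above the WT bar for each gene. Fdps in WT epidermis (640.5 TPM) and Msmo1 in KO skin (436.5 TPM) are the longest bars of their panels.

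Genes around the pathway were read from further lists. Of 13 genes of isoprenoid use and prenylation, 5 were higher and 1 lower in KO skin (median log2 fold change 0.30), and 6 were higher and 4 lower in KO epidermis (0.10). Beside the 45.5% of all genes called in skin and 51.5% in epidermis, the skin count is close to the share over all genes. Pdss1, a subunit of the synthase of the ubiquinone tail, had 33.8, 27.4 and 26.8 CPM in KO skin, against 5.25, 2.09 and 3.04 CPM in WT skin. KO lay far above WT, with log2 fold changes of 3.18 (SE 0.34, 9.08-fold, edgeR adjusted p = 0.000669) in skin and 2.14 (SE 0.31, 4.39-fold, edgeR adjusted p = 0.000664) in epidermis. Nus1, a subunit of the dolichol-chain synthase, was higher in skin at 1.45 (SE 0.13, 2.73-fold, edgeR adjusted p = 0.000343) and in epidermis at 0.88 (SE 0.10, 1.84-fold, edgeR adjusted p = 0.000211). Fntb, the farnesyltransferase beta subunit, was higher in skin at 0.97 (SE 0.13, 1.96-fold, edgeR adjusted p = 0.00155). In epidermis Fntb had 25.4, 23.5 and 26.8 CPM in KO libraries, against 16.7, 15.2 and 14.2 CPM in WT libraries. Coq2, which attaches the ubiquinone tail, was lower in epidermis at -0.63 (SE 0.10, 1.55-fold lower, edgeR adjusted p = 0.000922). In skin Coq2 had 36.3, 34.6 and 33.8 CPM in KO libraries, against 67.9, 53.5 and 51.7 CPM in WT libraries. Of 8 SREBP proteases and degradation factors, 1 was higher in KO skin (median 0.07), and 1 was higher and 1 lower in KO epidermis (median 0.13), both smaller shares than over all genes. Rnf145, a ubiquitin ligase of Scap, was the one in skin, at 0.43 (SE 0.14, 1.35-fold, edgeR adjusted p = 0.0399). In epidermis Mbtps2, the site-2 protease that releases SREBP, was higher at 0.76 (SE 0.17, 1.69-fold, edgeR adjusted p = 0.00519), and Aup1 was lower at -0.51 (SE 0.13, 1.42-fold lower, edgeR adjusted p = 0.0114).

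Genes that move, store and convert cholesterol were called in both directions. Of 13 transport and storage genes, 2 were higher and 5 lower in KO skin (median log2 fold change -0.12), and 7 were higher and 2 lower in KO epidermis (0.44). Stard5, a START-domain lipid-binding protein, was higher in skin at 1.20 (SE 0.14, 2.3-fold, edgeR adjusted p = 0.000969) and in epidermis at 0.91 (SE 0.12, 1.88-fold, edgeR adjusted p = 0.000455). Soat1, which esterifies cholesterol, was higher in skin at 1.28 (SE 0.21, 2.43-fold, edgeR adjusted p = 0.00341), and Gramd1c, a sterol transfer protein of membrane contacts, was lower in skin at -1.84 (SE 0.22, 3.58-fold lower, edgeR adjusted p = 0.00106) and in epidermis at -1.35 (SE 0.19, 2.55-fold lower, edgeR adjusted p = 0.000616). Scarb1, a lipoprotein receptor, had 8.70, 8.61 and 8.76 CPM in KO epidermis, against 0.795, 2.14 and 1.21 CPM in WT epidermis, a log2 fold change of 2.63 (SE 0.32, 6.19-fold, edgeR adjusted p = 0.000307). Of 6 genes of LXR, the oxysterol receptor, and its targets, 2 were higher and 1 lower in skin (median 0.10) and 3 were higher and 1 lower in epidermis (0.53). In skin Nr1h3, which encodes LXR alpha, was lower at -1.28 (SE 0.22, 2.43-fold lower, edgeR adjusted p = 0.00361), and Lpcat3 (0.62) and Abcg1 (0.51) were higher. In epidermis Abca1, the cholesterol exporter, was higher at 1.17 (SE 0.21, 2.25-fold, edgeR adjusted p = 0.00223), as were Mylip (0.67) and Lpcat3 (0.39). Of the genes that convert cholesterol, 2 of 6 were higher and 2 lower in skin (median -0.12), and 2 of 5 tested were higher and 2 lower in epidermis (0.04). Over all genes 45.5% were called in skin and 51.5% in epidermis, and the skin counts of transport and LXR genes are near that share.

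The largest differences among these neighbours were in oxysterol handling. Cyp7b1, the oxysterol hydroxylase, had 16.5, 23.7 and 20.99 CPM in KO skin, against 0.210, 0.366 and 0.850 CPM in WT skin. All KO skin libraries were above all WT skin libraries, with a log2 fold change of 5.48 (SE 0.41, edgeR adjusted p = 0.000209). The WT skin values rest on few reads, since 3 counts equal 0.204, 0.179 and 0.209 CPM there. The size of this difference is therefore poorly fixed. In epidermis Cyp7b1 had 212, 113 and 104 reads in KO libraries, against 2, 0 and 0 reads in WT libraries. Per total count the ratio of KO to WT epidermis was 203 (95% exact interval 55.97 to 1685, counting error only). Ch25h, the cholesterol hydroxylase, had 0.0790, 0.239 and 0.424 CPM in KO epidermis, against 5.92, 21.6 and 16.6 CPM in WT epidermis. KO epidermis lay below WT epidermis, with a log2 fold change of -5.80 (SE 0.64, 55.6-fold lower, edgeR adjusted p = 0.000184). The KO values rest on few reads, since 3 counts equal 0.194, 0.224 and 0.207 CPM in these KO libraries. The size of that fold is therefore poorly fixed. Hsd3b7, a dehydrogenase of hydroxylated sterols, was lower in skin at -1.48 (SE 0.22, 2.79-fold lower, edgeR adjusted p = 0.00228) and in epidermis at -1.90 (SE 0.16, 3.73-fold lower, edgeR adjusted p = 5.48e-05). Sult2b1, which makes cholesterol sulfate in keratinocytes, was higher in skin at 1.39 (SE 0.17, 2.62-fold, edgeR adjusted p = 0.00112). Its epidermal groups overlapped, with 151.7, 146.9 and 125.2 CPM in KO libraries, against 125.5, 122.6 and 169.9 CPM in WT libraries.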

How the data were processed

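Gene-level tables of 12 libraries were used. Per the file headers they hold the expected counts, TPM, FPKM and effective lengths that RSEM estimates. The submitters' processing notes also name STAR 2.5.1, bcl2fastq 2.17 and mm10 (annotation release and strand option: not given in the sources used here). The kit is stranded per the labels' protocols. RSEM divides reads that fit several genes between them. In each library between 8.42% and 9.98% of the gene IDs had a deposited expected count that was not whole, which is not a share of reads. Of 47643 IDs, 47224 matched GENCODE release 21 (GRCm38) without the version number, and the other 419 held at most 0.0612% of counts and stayed in the totals. Expected counts deposited by the authors were rounded and tested in R 4.3.3 by the quasi-likelihood test of edgeR 4.0.16 after TMM scaling and its default filter (minimum count 10), with p-values adjusted by Benjamini-Hochberg over all genes tested and a threshold of 0.05. KO and WT were compared within each tissue and tissues within each genotype, in 6 libraries each, and the difference of the knockout effects in all 12. The SE is the log2 fold change divided by the square root of the F value, and 95% intervals use it with the residual degrees of freedom. Levels between genes use the deposited TPM, with the deposited FPKM as an alternative. A library's 3 counts equal between 0.179 and 0.246 CPM.

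The members and lists were chosen with earlier results of these data known. All 26 genes are named; values in every library are given for genes called with a log2 fold change of at least 0.8 in size, for those called between tissues and for Srebf1, Srebf2, Insig1 and Insig2 (Dhcr7 was added after its values were seen), and of each other pathway list up to 3 called genes with the smallest adjusted p. The test was tried on simulated data. Alternatives were DESeq2 1.42.0, limma-voom (limma 3.58.1), RLE scaling, library totals, no filter, effective length offsets (the deposited effective lengths are another value in the tables), 1 fit of all 12 libraries, a replicate block, the Y-linked share, and leaving out libraries. Within groups, rank correlations of libraries were 0.936 to 0.949, and no pair was as alike as counting noise alone would make it. In skin, KO and WT libraries of the same number deviated together across genes (correlations 0.338, 0.363 and 0.189). The numbers may therefore pair them, which is a reading of the data, since no label states it. The main fits did not pair libraries, and the replicate block was run as an alternative. In epidermis they did not (0.066, 0.121 and -0.0366). Results of some related genes are not reported here.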

Additional observations from a re-analysis of the deposited data

Results flagged for a closer look

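For 7 of the 26 genes the knockout effect differed between the tissues in the edgeR fit of all 12 libraries, where 16.5% of all genes did. Leaving out 1 library left as few as 4, and of 19 alternatives Hmgcs1 lost its call in 13, Fdft1 in 10 and Tm7sf2 in 9. None of the 19 held the Y-linked share as a covariate. Each difference is given as the epidermal minus the skin log2 fold change. Pmvk (-1.26), Mvd (-0.92), Fdps (-1.03), Fdft1 (-0.57), Tm7sf2 (-1.05), Ebp (-1.05) and Hmgcs1 (-0.91) all had the smaller or more negative value in epidermis. For Fdps the skin effect was 0.12 and the epidermal effect -0.98. Of 12 sebaceous markers 7 were higher and 1 lower in KO in each tissue, while 9 of 10 muscle and 10 of 10 adipocyte markers were lower in KO skin and summed to at most 28.93 and 24.46 CPM in epidermis, and the part of these in the difference was not tested.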

How the results depend on the processing

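No called direction reversed. In skin 391 of 416 pairs of a gene and an alternative kept their side of the threshold, in epidermis 377 of 390 and between tissues 452 of 494. In skin DESeq2 called 20 genes higher, with Insig1 added, and library totals 17, without Sc5d (edgeR adjusted p = 0.109) and Scap; 1 gene (Dhcr7) was lower in 1 fit of all 12 libraries, 15 genes were higher with the Y-linked share as a covariate, and 11 genes of the set and 2658 of all genes passed without the KO libraries with Y-linked reads. In epidermis 4540 genes passed with the Y-linked share as a covariate. For the knockout effect between tissues DESeq2 called 1 gene higher (Dhcr7) and 8 lower, with Idi1 added. RLE scaling called the same 8 lower, limma-voom 6 and library totals 5. WT epidermis against WT skin gave 2 lower genes with DESeq2, 2 with 1 fit of 12, and 3 higher and 2 lower with library totals. KO epidermis against KO skin gave 1 higher and 17 lower with library totals, 5 lower with 1 fit of 12, and 5 lower of the set and 2805 of all genes with the replicate block. Library totals moved the share of all calls that were higher to 23.7%, against 40.9% as reported, in WT and to 12.4%, against 47.1%, in KO. The causes were not tested.

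Leaving out 1 library at a time, the genes of the set called ranged in skin from 17 to 20 higher and 0 to 1 lower, and in epidermis from 9 to 11 higher and 1 to 3 lower. Between tissues they ranged from 0 to 2 higher and 4 to 8 lower, with 1397 to 3940 of all genes. In WT epidermis against WT skin they ranged from 3 to 7 higher and 0 to 1 lower, and in KO epidermis against KO skin from 3 to 5 higher and 5 to 8 lower, with 2328 to 3561 of all genes. With the replicate block 19 genes were higher in skin, and 11 higher and 1 lower in epidermis, as without it; between tissues 6 were lower, without Fdft1. It changed no other call in the genotype comparisons. Between the tissues within a genotype, libraries of the same number did not deviate together across genes (correlations from -0.196 to 0.00705). Whether such libraries came from the same mouse is not stated. Of 2028 comparisons with an alternative, 72 changed the sign of a value called under neither. FPKM gave the same shares of Fdps as TPM, which is fixed in advance, since within a library the units differ only by a constant factor. Groups of 3 libraries and reads as few as 109 for a gene limit what can be detected.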

Other observations

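Relatives of Acat2 and Idi1 were also measured. Acat1, the mitochondrial thiolase, had KO over WT log2 fold changes of -0.17 (SE 0.20, edgeR adjusted p = 0.52) in skin and 0.24 (SE 0.11, edgeR adjusted p = 0.0865) in epidermis. Acat2 was higher in KO in both tissues, and the difference between these 2 genes was not tested. Acat3 and Idi2 stayed at or below 0.95 CPM in every library.

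The libraries of a group were not evenly ordered over the 26 genes. Skin KO 2, the KO skin library without Y-linked reads, was the highest of its group for 19 genes, and Skin WT 2 for 20. Epidermis KO 2 was the lowest of its group for 18 genes, and Epidermis WT 1 for 15.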
